A study of Mus musculus with 4 samples.

Results

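The unfolded protein response and the heat shock response are the programmes by which a cell adjusts its protein folding capacity, and 35 mouse genes of these programmes were described in granulosa cells (GCs). The members were named by gene symbol: 14 folding genes of the endoplasmic reticulum (ER), 4 genes of ER-associated degradation, 4 genes made up of the 3 ER stress sensors and Xbp1, 7 genes of the arm that runs through ATF4, and 6 cytosolic heat shock genes. All 35 were found among the 55385 genes of the count table, on 36 of its lines, because Ddit3 had 2 identifiers. Its second identifier held 1 count in each library and was not tested.

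GCs are the somatic cells that surround the oocyte in a follicle. Preantral follicles had been dissected from ovaries of Kunming mice, females 12 to 14 days old, and cultured singly for 6 days, either without neurotrophin-4 (the Control group, n = 2 libraries) or with this growth factor, NT-4 for short (the NT4 group, n = 2 libraries). Both groups shared the same base medium with follicle-stimulating hormone, fetuin, albumin, insulin and transferrin, and neither carried an engineered allele. The GCs were the cumulus cells left after the oocytes had been taken out of the follicles, and their RNA was sequenced in bulk. The study tried several doses of NT-4 and kept 1 for its later work, which the labels do not give for these libraries. The labels also gave no number of follicles or animals behind a library, and no statement that libraries of the same number came from the same experiment.

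Secreted and membrane proteins fold in the ER with the help of chaperones and of enzymes that form disulphide bonds, and chains that fail to fold are pulled back to the cytosol and degraded. When unfolded chains accumulate, the sensors IRE1 (gene Ern1), PERK (Eif2ak3) and ATF6 respond: IRE1 splices the Xbp1 mRNA into the form that encodes an active transcription factor, ATF6 is cut in the Golgi to release one, and PERK slows translation in general while that of ATF4 goes on. In the cytosol the transcription factor HSF1 serves the corresponding purpose for HSP70-type chaperones. GCs of growing follicles secrete inhibins, anti-Müllerian hormone and matrix proteins, so that their ER carries a steady load. The comparison addressed whether NT-4 in the culture medium went with a different mRNA level of these genes.

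A number of ER chaperone genes are known to carry the ER stress response element (ERSE) in their promoter, to which ATF6 and XBP1 are recruited with NF-Y, the factor that binds CCAAT. The 250 bases before the RefSeq start site were available for 29 of the 35 members (build GRCm38.p6), and the letters CCAAT, any 9 bases and then CCACG were searched on both strands. They were found in 0.113% of the 32851 windows of all genes and in 8 of the 29 members, 7 of them ER folding genes, with 9 copies in all. Here and below, the share over all genes counts windows, of which a gene can have several. The members are counted as genes with the letters in any of their windows, so the units differ. Each copy follows in the orientation of the motif with 5 bases on either side, the fixed letters of the motif in capitals. The copies let the 8 genes be compared with the members whose window lacks these exact letters.
Hspa5, chr2:34772020-34772048, plus strand: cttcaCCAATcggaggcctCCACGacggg
Hsp90b1, chr10:86705633-86705661, minus strand: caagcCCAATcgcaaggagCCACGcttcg
Hsp90b1, chr10:86705528-86705556, plus strand: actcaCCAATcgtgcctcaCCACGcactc
Calr, chr8:84847070-84847098, plus strand: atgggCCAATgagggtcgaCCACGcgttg
Canx, chr11:50325795-50325823, minus strand: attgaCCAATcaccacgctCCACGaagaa
Pdia6, chr12:17266486-17266514, plus strand: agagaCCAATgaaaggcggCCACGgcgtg
Dnajc3, chr14:118937822-118937850, plus strand: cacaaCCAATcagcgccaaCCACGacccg
Creld2, chr15:88819515-88819543, minus strand: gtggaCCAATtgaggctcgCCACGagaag
Syvn1, chr19:6046527-6046555, plus strand: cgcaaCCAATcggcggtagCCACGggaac
The copies in Calr and Creld2 and the second copy in Hsp90b1 run opposite to the gene, and the others run with it. The nearest to a start site is that of Syvn1, 44 to 26 bases before it, followed by that of Hspa5 at 65 to 47 bases. The GENCODE annotation (M21) places the Hspa5 copy in an exon of Hspa5, within an untranslated part of it, and lists no gene at the other 8 positions.

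A second element, the C/EBP-ATF response element (CARE), is bound by ATF4 with a C/EBP partner. Its letters TGATGNAA were found in 3.45% of all windows and in 3 of the 29 members, Herpud1, Chac1 and Asns, shown here with the fixed letters in capitals.
Herpud1, chr8:94386312-94386329, minus strand: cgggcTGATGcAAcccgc
Chac1, chr2:119351044-119351061, minus strand: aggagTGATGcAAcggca
Asns, chr6:7693220-7693237, minus strand: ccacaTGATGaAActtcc
The Asns copy runs with the gene, 23 to 16 bases before the RefSeq start and inside an exon that GENCODE gives to Asns, while the other two run opposite to their genes. The Herpud1 copy also lies in an intron of Gm15890 on the minus strand. The letters of the unfolded protein response element, TGACGTGG, and of a heat shock element, GAA, TTC and GAA with any 2 bases between them, were in 0 of the 29 members, against 0.563% and 0.466% of all windows. All these searches took exact letters only. Elements with variant letters were not looked for, so a member without a match is not shown to lack the element. Of the cytosolic heat shock genes, Hspa8 and Hsf1 had no window. The CCAAT box by itself, which is also contained in every ERSE, was in 24 of the 29 members and in 33.8% of all windows. A match of letters is a description of the window and no evidence of binding.

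The library totals were 49520092 and 73743901 counts in Control 1 and 2 and 61980073 and 78704020 in NT4 1 and 2. Of the counts from 1 to 12, 45.4% to 46.2% lay at 4, 8 or 12, so a count need not be 1 read pair. If 4 counts were 1 pair, which was not tested, the totals would be 12380023 to 19676005 pairs. The members held 1.31% to 1.40% of all counts. The cell type given by the labels was checked against its defining genes, and all 10 GC markers, among them Fshr, Foxl2 and Amh, were present at 1 CPM (a count scaled to a library total of 1000000) or more. Their summed level was 9635 to 14320 CPM, against 69.5 to 101 CPM for 10 oocyte markers, 19.3 to 28.3 CPM for 5 endothelial markers, 1.38 to 2.95 CPM for 6 macrophage markers, 3.23 to 5.60 CPM for 5 erythroid markers, 69.9 to 113 CPM for 5 hepatocyte markers and 0.0542 to 0.519 CPM for 5 surface epithelium markers, of which Krt19 and Upk1b were at 0 in every library. The 8 theca and stroma markers summed to 946 and 921 CPM in Control 1 and 2 and to 1359 and 1117 CPM in NT4 1 and 2, so that the groups did not overlap in this sum, and gene by gene 6 of the 8 were higher in NT4 without overlap. Among all genes at a mean of 1 CPM or more, 12.7% were higher and 11.2% lower in NT4 without overlap. Of the 5 hepatocyte markers 3 were lower in NT4 without overlap: Ttr was at 7.37 and 4.77 CPM in Control 1 and 2 and at 2.34 and 2.98 CPM in NT4 1 and 2, Serpina1a at 7.63 and 5.68 against 3.75 and 3.76 CPM, and Ahsg at 12.1 and 4.99 against 4.36 and 4.51 CPM. The other two, Alb and Apoa1, were the more abundant and overlapped between the groups. Without overlap, NT4 was also higher in Tek and Emcn and lower in Kdr among the endothelial markers, and higher in Lyz2 (macrophage) and Msln (surface epithelium). Each of these had a mean below 1 CPM, outside the genes behind the 12.7% and 11.2%. Kdr was at 1.10 and 0.597 CPM in Control 1 and 2 and at 0.497 and 0 CPM in NT4 1 and 2. Msln was at 0 CPM in both Control libraries and at 0.0802 and 0.221 CPM in NT4 1 and 2. Levels so near 0 are given as a description. No GC, oocyte or erythroid marker separated the groups. The part of these other cell types in the results was not tested, and in bulk RNA fewer cells of a type cannot be told apart from less RNA per cell.

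No member differed between NT4 and Control by the test across all genes. The edgeR quasi-likelihood test with Benjamini-Hochberg adjustment over 19259 genes called 0 of the 35 members at an adjusted p under 0.05, where it called 0% of all genes, and the smallest adjusted p among the members was 0.99994. At an unadjusted p under 0.05 edgeR called 0 of 35 members against 1.99% of all genes, and the study's limits of a fold change beyond 2 or 0.5 and a p under 0.05, taken here with the unadjusted p, called 0 of 35 against 1.08%. The DESeq2 Wald test, the edgeR exact test and limma voom likewise called 0 members, adjusted or not, where they called 0.338%, 0.306% and 0% of all genes with adjustment and 2.26%, 2.31% and 1.95% without it. A p that misses the threshold does not show equal levels, so the intervals bear the information: the 95% interval of the fold change lay within a 2-fold change in either direction for 35 of 35 members, against 58.2% of all genes tested, and within 1.5-fold for 23 of 35, against 6830 of the 19259 genes. The members' median level was above that of all genes tested, and these shares were not matched for level. The widest reach was that of Atf4, down to a log2 fold change of -0.998, and of Hsf1, up to 0.99. Both lie so near the 2-fold limit that they passed it under some other settings. With all libraries kept, 33 to 35 members stayed within it, against 42.6% to 76.3% of all genes. With 1 library left out, 29 to 34 members did, the fewest without Control 1, against 46.8% to 49.9% of all genes.

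**Figure D1:**
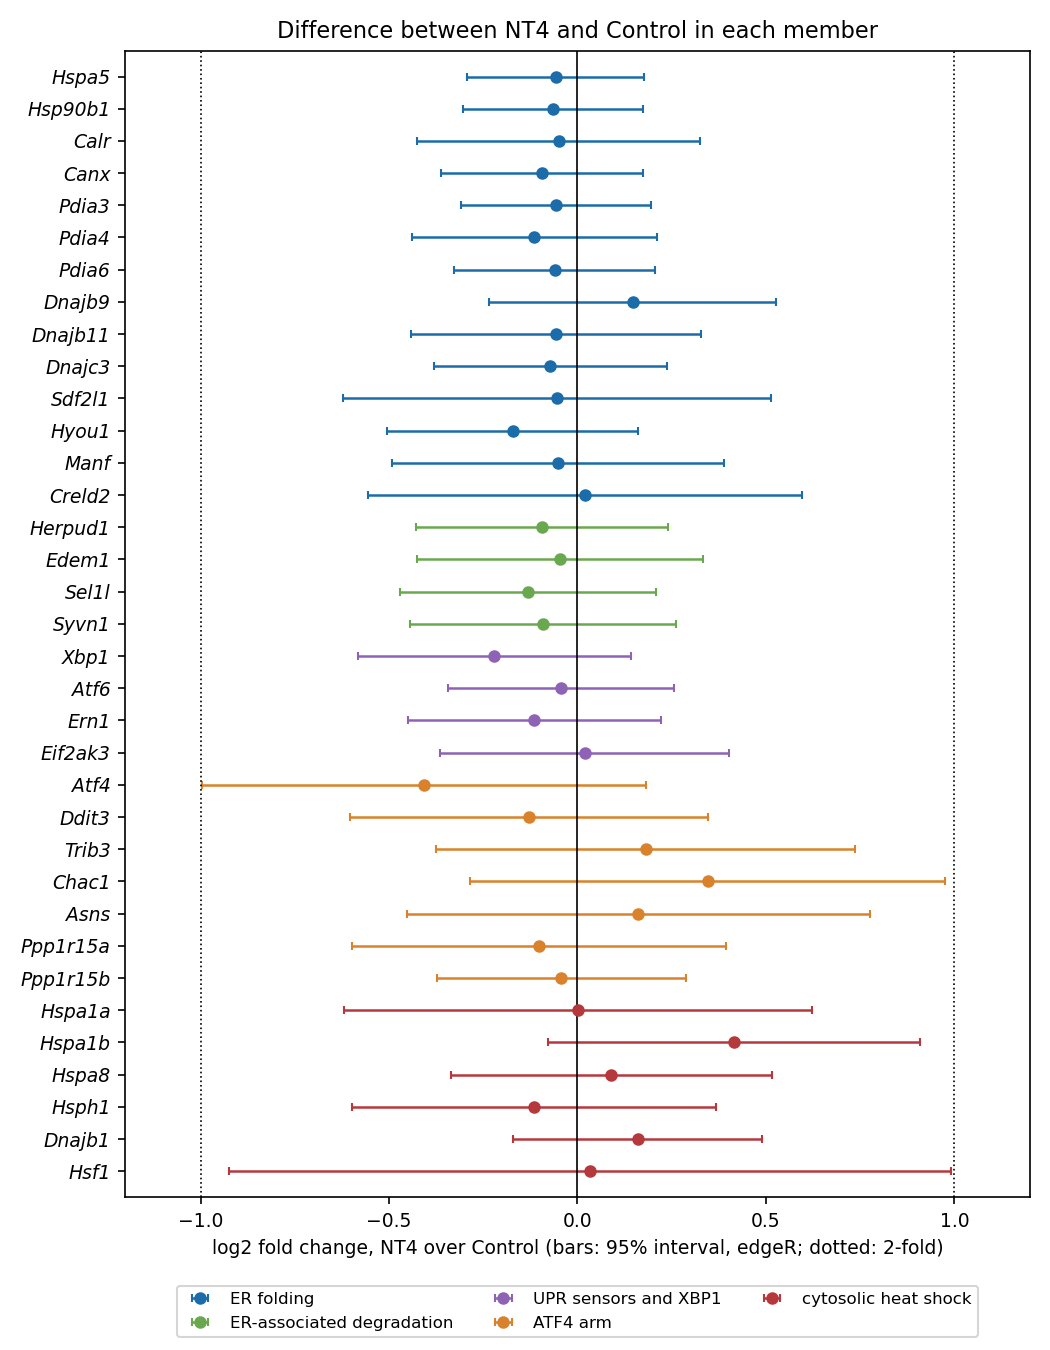
Log2 fold change of NT4 over Control (x axis) for the 35 members (y axis), coloured by role. Points are edgeR estimates, bars their 95% intervals, and dotted lines mark a 2-fold change: with the settings shown every interval spans 0 and stays between the dotted lines, those of Atf4 and Hsf1 only just, and Hspa5 and Hsp90b1 have the narrowest bars.

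The point estimates were small. The median log2 fold change of the members was -0.057, in a range from -0.41 for Atf4 to 0.41 for Hspa1b, beside a median of 0.0045 over all genes tested. The members' median was -0.094 without NT4 2 and -0.036 without Control 2, where that of all genes was -0.0090 and 0.015. The median size of the estimate regardless of sign was 0.091 in the members and 0.148 in all genes, which were not matched to the members for level. Of the 35 members, 24 had a lower and 11 a higher estimate in NT4, so that 68.6% were lower, where 49% of all genes were. By role, the median log2 fold change was -0.058 for ER folding (12 of 14 lower), -0.093 for ER-associated degradation (4 of 4 lower), -0.079 for the sensors and Xbp1 (3 of 4 lower), -0.043 for the ATF4 arm (4 of 7 lower) and 0.062 for cytosolic heat shock (1 of 6 lower). The sign of 3 of these medians turned when 1 library was left out: ER-associated degradation was at 0.0075 without Control 2, the ATF4 arm at 0.020 without Control 1 and 0.12 without NT4 2, and cytosolic heat shock at -0.016 without NT4 1. The groups did not overlap in 7 of 35 members, 5 lower in NT4 and 2 higher, which is 20% of them, against 23.9% of the genes at a mean of 1 CPM or more (11.2% lower, 12.7% higher). Such a count is near the background and is no result about the members.

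Among the ER folding genes, Hspa5, which encodes BiP, the HSP70 of the ER lumen and the usual readout of an unfolded protein response, was at 1678 CPM in both Control libraries and at 1586 and 1638 CPM in NT4 1 and 2. Both NT4 libraries lay below both Control libraries, by a log2 fold change of -0.058 with a standard error (SE) of 0.093 and a 95% interval from -0.29 to 0.18. On the linear scale the estimate was 0.961 times the Control level.
Hsp90b1, which encodes GRP94, the HSP90 of the ER, was at 1546 and 1518 CPM in Control and at 1436 and 1492 CPM in NT4 (log2 fold change -0.065, SE 0.095). Its counts are less certain, as 3 other annotated genes overlap its exons.
Canx, the membrane-bound lectin chaperone calnexin, was at 771 and 769 CPM in Control and at 749 and 692 CPM in NT4 (log2 fold change -0.095, SE 0.11). Pdia3, the disulphide isomerase that works with calnexin and calreticulin, was at 1149 and 1133 CPM in Control and at 1065 and 1129 CPM in NT4 (log2 fold change -0.057, SE 0.10). In these 4 genes the groups did not overlap, yet the gaps between nearest libraries were small, 1133 against 1129 CPM in Pdia3, and the intervals of all 4 include 0.

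In the remaining 10 ER folding genes the groups overlapped. Calr, the soluble lectin chaperone calreticulin, ranged from 1283 CPM in NT4 1 to 1612 CPM in NT4 2, so that the 2 NT4 libraries enclosed both Control libraries (1399 and 1597 CPM). The same order, NT4 1 lowest and NT4 2 highest, was seen in Dnajb11 (147 to 185 CPM), a J-domain partner of BiP, in Sdf2l1 (46.8 to 72.1 CPM), which acts with it, in Manf (277 to 369 CPM), a secreted neurotrophic factor of the ER whose exons overlap those of Rbm15b and Dcaf1, and in Creld2 (97.3 to 149 CPM). Pdia4 and Pdia6, a pair of further disulphide isomerases, and Hyou1, the large HSP70-like protein that exchanges the nucleotide of BiP, were also lowest in NT4 1, at 403, 654 and 451 CPM, with their highest values at 492, 718 and 574 CPM in a Control library. Only Dnajb9 (62.2 to 80.6 CPM) and Dnajc3 (217 to 246 CPM), both J-domain partners of BiP, were highest in NT4 1. NT4 1 was the lowest library in 11 of the 14 ER folding genes, where it was the lowest in 5071 of the 19259 genes tested. The median log2 fold change of the role was -0.020 without NT4 1 and -0.16 without NT4 2.

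The 7 ER folding genes with the printed ERSE had log2 fold changes from -0.095 (Canx) to 0.020 (Creld2) with a median of -0.061. The 5 with a window but no exact match to the ERSE letters had a median of -0.057. The difference between genes with and without these exact letters was not tested. Among the 8 members with an ERSE, the highest library stood 1.06 times over the lowest in Hspa5 and 1.53 times in Creld2.

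The 4 genes of ER-associated degradation had lower estimates in NT4, with overlapping groups in each. Herpud1, a membrane protein that helps to assemble the degradation complex, was at 101 and 103 CPM in Control and at 87.5 and 104 CPM in NT4. Edem1, a lectin that hands over misfolded glycoproteins, was at 81.6 and 99.7 CPM in Control and at 82.2 and 93.4 CPM in NT4. Sel1l, the adaptor of the ubiquitin ligase, was at 279 and 324 CPM in Control and at 261 and 290 CPM in NT4. Syvn1, the ligase HRD1 itself, was at 81.3 and 94.9 CPM in Control and at 88.0 and 77.4 CPM in NT4, and its exons overlap those of Mrpl49. Control 2 was the highest library in 3 of the 4, and with any 1 library left out their median ranged from -0.20 to 0.0075.

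Xbp1 had the lowest estimate of the sensor group. It was at 123 and 114 CPM in Control (118 ± 6.39, SD, n = 2) and at 91.4 and 111 CPM in NT4 (101 ± 14.2, SD, n = 2), with no overlap of the groups and a log2 fold change of -0.22 (SE 0.14, 95% interval from -0.58 to 0.14). The estimate was -0.091 without NT4 1, and -0.37 without NT4 2 with an unadjusted p of 0.0473 and an adjusted p of 0.99977 by edgeR. The nearest libraries, Control 2 and NT4 2, were 114 and 111 CPM. Gene counts sum the spliced and unspliced forms, so the activity of IRE1 on Xbp1 cannot be read from them.
In the 3 sensors the groups overlapped. Atf6 was at 106 and 99.6 CPM in Control and at 104 and 95.1 CPM in NT4 (log2 fold change -0.044, SE 0.12, and 0.019 without NT4 2). Ern1 was at 92.4 and 92.2 CPM in Control and at 92.7 and 77.8 CPM in NT4 (log2 fold change -0.11, SE 0.13), NT4 2 standing below the other 3 libraries, and the estimate was -0.25 without NT4 1 and 0.0060 without NT4 2. Eif2ak3 was at 52.9 and 58.7 CPM in Control and at 51.3 and 61.8 CPM in NT4 (log2 fold change 0.019, SE 0.15). The Eif2ak3 estimate was -0.0027 when libraries were scaled by their totals, -0.058 without Control 1 and -0.12 without NT4 2. The sensors are activated as proteins, which mRNA levels do not measure.

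In Atf4 1 library stood apart. The gene was at 239 CPM in Control 1, 382 CPM in Control 2, 241 CPM in NT4 1 and 227 CPM in NT4 2, so that Control 2 stood 1.62 times above the mean of the other 3 libraries (236 CPM). The log2 fold change was -0.41 (SE 0.23, 95% interval from -0.998 to 0.18). Without Control 2 it was -0.026, and without Control 1 it was -0.71 with an unadjusted p of 0.0102 and an adjusted p of 0.99997 by edgeR. Of the other members of the arm, Ddit3, Trib3, Chac1 and Asns were each lowest in Control 2, and of 20 further ATF4 targets 8 were lowest and 1, Wars, highest there. Of the 19259 genes tested, 4295 were lowest and 4006 highest in this library. ATF4 is controlled mainly by translation of its mRNA, which these data do not measure.
Ddit3, which encodes CHOP, the factor tied to cell death in prolonged ER stress, was low, at 12.3 and 9.99 CPM in Control and at 10.0 and 10.3 CPM in NT4 (log2 fold change -0.13, SE 0.19, and 0.020 without Control 1), and its exons overlap those of Mars on the other strand. Trib3, a pseudokinase induced through ATF4 and CHOP, was at 5.44 and 5.04 CPM in Control and at 6.46 and 5.42 CPM in NT4. Chac1, which degrades glutathione, was at 11.5 and 8.38 CPM in Control and at 14.5 and 10.8 CPM in NT4. Asns, the asparagine synthetase, was at 111 and 82.3 CPM in Control and at 129 and 87.3 CPM in NT4. In Trib3, Chac1 and Asns the number 1 library was above the number 2 library in both groups, by 1.08 and 1.19 times in Trib3, by 1.38 and 1.33 times in Chac1 and by 1.35 and 1.48 times in Asns. Of the members with the CARE letters, Chac1 and Asns thus had this order and Herpud1 the opposite one, at 0.983 and 0.844 times, and Trib3 had it without those letters in its window.
The 2 regulatory subunits that direct phosphatase 1 to eIF2α, and so reverse the action of PERK, were likewise higher in number 1 than in number 2 in both groups. Ppp1r15a (GADD34, the inducible subunit) was at 174 and 148 CPM in Control and at 175 and 125 CPM in NT4, and Ppp1r15b (the constitutive subunit) at 161 and 154 CPM and at 165 and 141 CPM.

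**Figure D2:**
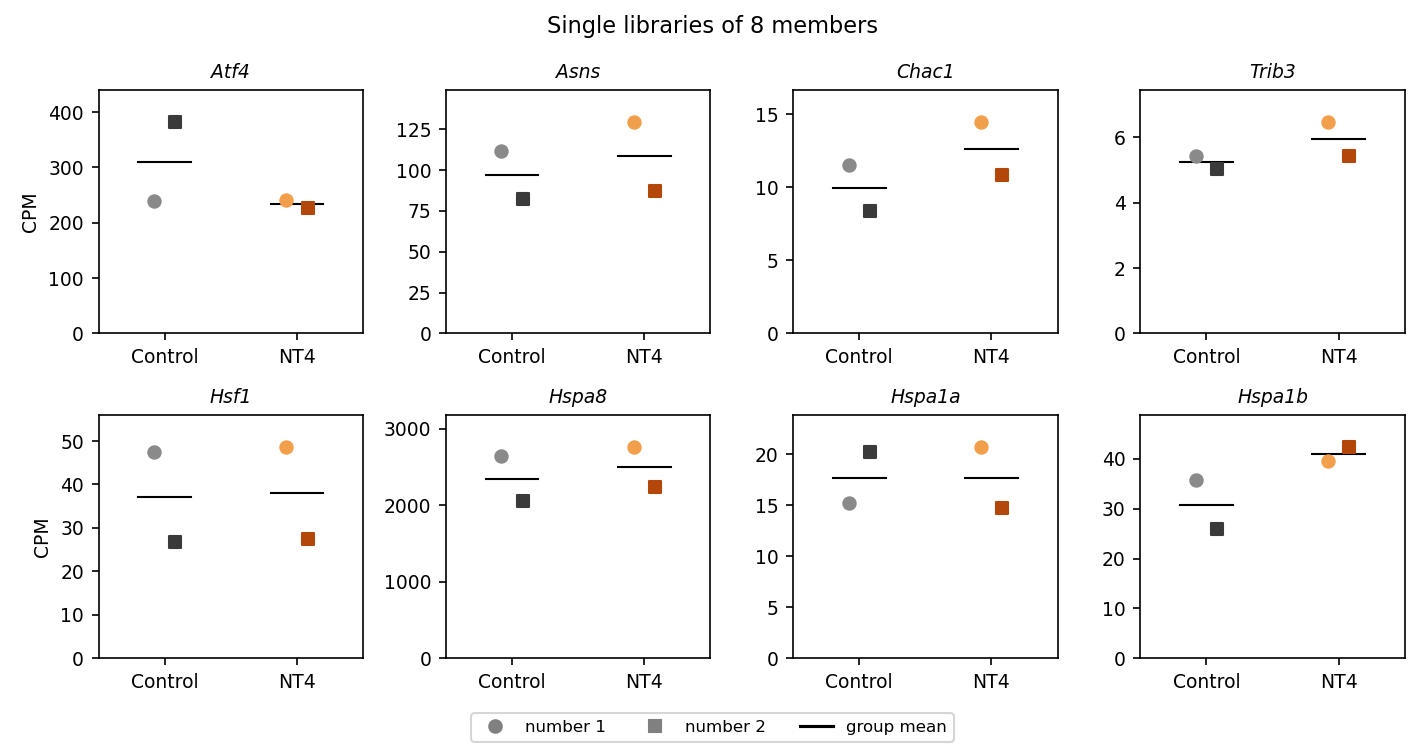
CPM (y axis, from 0) of 4 genes of the ATF4 arm and 4 cytosolic heat shock genes in each library, by group (x axis). Circles are libraries numbered 1, squares those numbered 2, and lines group means: Control 2 stands apart at 382 CPM in Atf4, and Hsf1 separates by library number, with 47.6 and 48.6 CPM against 26.7 and 27.4 CPM.

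Of the cytosolic genes, Hspa8, the constitutive HSP70 of the cytosol (HSC70), had the highest mean level per exon length of the members, though Calr was above it in Control 2 and NT4 2, and was at 2645 and 2056 CPM in Control and at 2764 and 2240 CPM in NT4 (log2 fold change 0.090, SE 0.17). The Hspa8 estimate was -0.075 without Control 2 and -0.076 without NT4 1. Hsf1, the master regulator of the heat shock genes, was at 47.6 and 26.7 CPM in Control and at 48.6 and 27.4 CPM in NT4 (log2 fold change 0.034, SE 0.38, 95% interval from -0.92 to 0.99). Its interval was the widest of the named members, in a fit without the library number, and each group held 1 high and 1 low library: number 1 stood 1.78 times above number 2 in Control and 1.78 times in NT4. The Hsf1 estimate was -0.32 without Control 2 and -0.44 without NT4 1. Dnajb1, the J-domain partner of cytosolic HSP70, was at 106 and 109 CPM in Control and at 110 and 130 CPM in NT4, without overlap (log2 fold change 0.16, SE 0.13, and 0.036 without NT4 2). Hsph1, the HSP110 exchange factor, was at 147 and 190 CPM in Control and at 136 and 174 CPM in NT4, with overlapping groups.

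Hspa1a and Hspa1b, the stress-inducible HSP70 genes, lie next to each other on the minus strand of chromosome 17, at chr17:34969190-34972156 and chr17:34956436-34959238, and are near copies. Their longest open reading frames are 1926 and 1929 bases and differ at 10 aligned positions (99.5% identical), and their 250 bases before the start site differ at 3. The stretch below, which begins at base 1828 of both frames and holds 4 of the 10 positions, is shown as an example of how the frames differ. The whole transcripts, of 2967 and 2803 bases, are less alike, at 85.5% identical. The share of reads that cover such a base was not computed. Capitals mark the bases that differ or are present in that copy alone.
Hspa1a: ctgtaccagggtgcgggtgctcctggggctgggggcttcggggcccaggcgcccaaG
Hspa1b: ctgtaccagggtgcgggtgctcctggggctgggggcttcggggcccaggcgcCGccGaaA
How the counting shared reads that fit both copies is not stated, so the split between them is uncertain. Hspa1a was at 15.2 and 20.2 CPM in Control and at 20.7 and 14.7 CPM in NT4 (log2 fold change 0.0014, SE 0.25). The Hspa1a estimate was -0.19 without Control 1 and -0.27 without NT4 1. Hspa1b was at 35.7 and 25.9 CPM in Control (30.8 ± 6.93, SD, n = 2) and at 39.6 and 42.4 CPM in NT4 (41.0 ± 1.97, SD, n = 2), the groups not overlapping. Its log2 fold change of 0.41 (SE 0.20, 95% interval from -0.079 to 0.91) was the largest of the members, with an unadjusted p of 0.0843 and an adjusted p of 0.99994 by edgeR. It was 0.21 without Control 2, and 0.66 without Control 1 with an unadjusted p of 0.0384 and an adjusted p of 0.99997 by edgeR. The copies were ordered oppositely within each group: Hspa1a was higher in Control 2 and in NT4 1, Hspa1b in Control 1 and in NT4 2. Summed, which does not depend on the split, they were at 50.9 and 46.1 CPM in Control and at 60.3 and 57.1 CPM in NT4, a log2 fold change of 0.28.

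Levels between genes were compared as CPM per kilobase of exon, the length being the union of all annotated exons of a gene. A gene with many annotated transcripts can have a union longer than the transcript in use, which lowers its level here. Which transcripts were in use was not tested. Hspa8 led with 564, followed by Calr (511), Hspa5 (389), Hsp90b1 (372) and Pdia3 (357), then Pdia4 (189), Pdia6 (184), Canx (159), Atf4 (115), Manf (93.4), Creld2 (89.5) and Hyou1 (69.3). At the lower end were Atf6 (11.0), Ern1 (10.9), Eif2ak3 (9.32), Chac1 (6.90), Ddit3 (6.21), Hspa1a (5.96), Hsf1 (5.29) and Trib3 (2.63). The other 15 members lay between, from Sdf2l1 (54.7) to Hspa1b (12.8). The median over the members was 37.5 CPM per kilobase, against 3.34 over all genes tested. By role the medians were 126 for ER folding, 27.7 for the ATF4 arm, 25.6 for ER-associated degradation, 17.5 for cytosolic heat shock and 10.9 for the sensors and Xbp1, with the roles interleaved: cytosolic heat shock held both Hspa8 at the top and Hsf1 near the end. Neighbours in this order overlapped in their library values in 29 of 34 pairs, and did not overlap between Calr and Hspa5, Pdia3 and Pdia4, Pdia6 and Canx, Syvn1 and Edem1, and Hsf1 and Trib3. Hspa8 stood at the 99.6th percentile of all genes tested and Trib3 at the 46.0th, with Chac1 at the 64.9th and Ddit3 at the 62.6th.

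**Figure D3:**
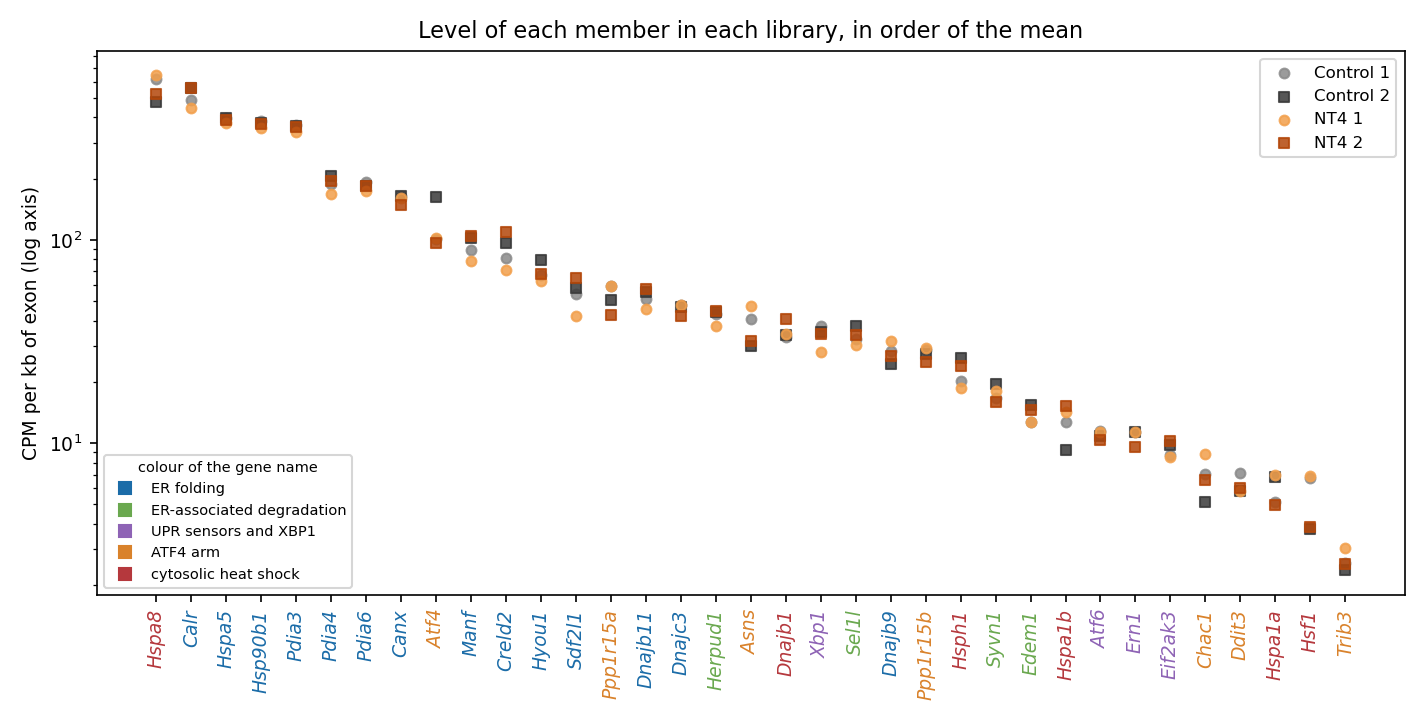
Level of the 35 members in CPM per kilobase of exon (y axis, log scale), ordered by the mean over the 4 libraries (x axis, gene names coloured by role). Symbols are single libraries: Hspa8 leads at a mean of 564 and Trib3 closes at 2.63, and the libraries of a gene mostly overlap with those of its neighbours.

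The libraries were also compared by their number. Those of the 2 numbers did not overlap in 23 of 35 members, 11 higher in number 1 and 12 higher in number 2, against 52.8% of the genes at a mean of 1 CPM or more (24.4% and 28.4%). This sets 65.7% beside 52.8% in a difference that was not tested, so a split by number is a trait of many genes and no result about the members. The directions are given for each role as a description. In ER folding 7 genes were higher in number 2 and 2 in number 1, and in ER-associated degradation 3 were higher in number 2 and 0 in number 1. In the ATF4 arm 5 were higher in number 1 and 0 in number 2. Among the sensors with Xbp1, and likewise among the cytosolic heat shock genes, 2 were higher in number 1 and 1 in number 2. The GC markers moved with the number as well: they summed to 10850 and 9635 CPM in Control 1 and NT4 1 and to 13020 and 14320 CPM in Control 2 and NT4 2, with 8 of the 10 markers higher in number 2 without overlap and 2 higher in number 1. Their part in the pattern was not tested. The ratio of number 1 to number 2 was highest in Hsf1 (1.78), Asns (1.42), Chac1 (1.35), Ppp1r15a (1.28) and Hspa8 (1.26), and lowest in Creld2 (0.744), Hsph1 (0.777), Sdf2l1 (0.783), Atf4 (0.788) and Manf (0.812). In Atf4 this rests on Control 2, as the ratio was 0.626 in Control and 1.06 in NT4. Whether the numbers mark experiments, and which step of culture or preparation the libraries shared, was not tested. Within each number, NT4 was below Control in both pairs in 10 of 35 members (Hspa5, Hsp90b1, Canx, Pdia3, Pdia4, Hyou1, Sel1l, Xbp1, Atf6 and Hsph1) and above it in both in 8 (Dnajb9, Trib3, Chac1, Asns, Hspa1b, Hspa8, Dnajb1 and Hsf1). The shares among genes at a mean of 1 CPM or more were 22.8% and 26.2%, and these counts are a description.

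**Figure D4:**
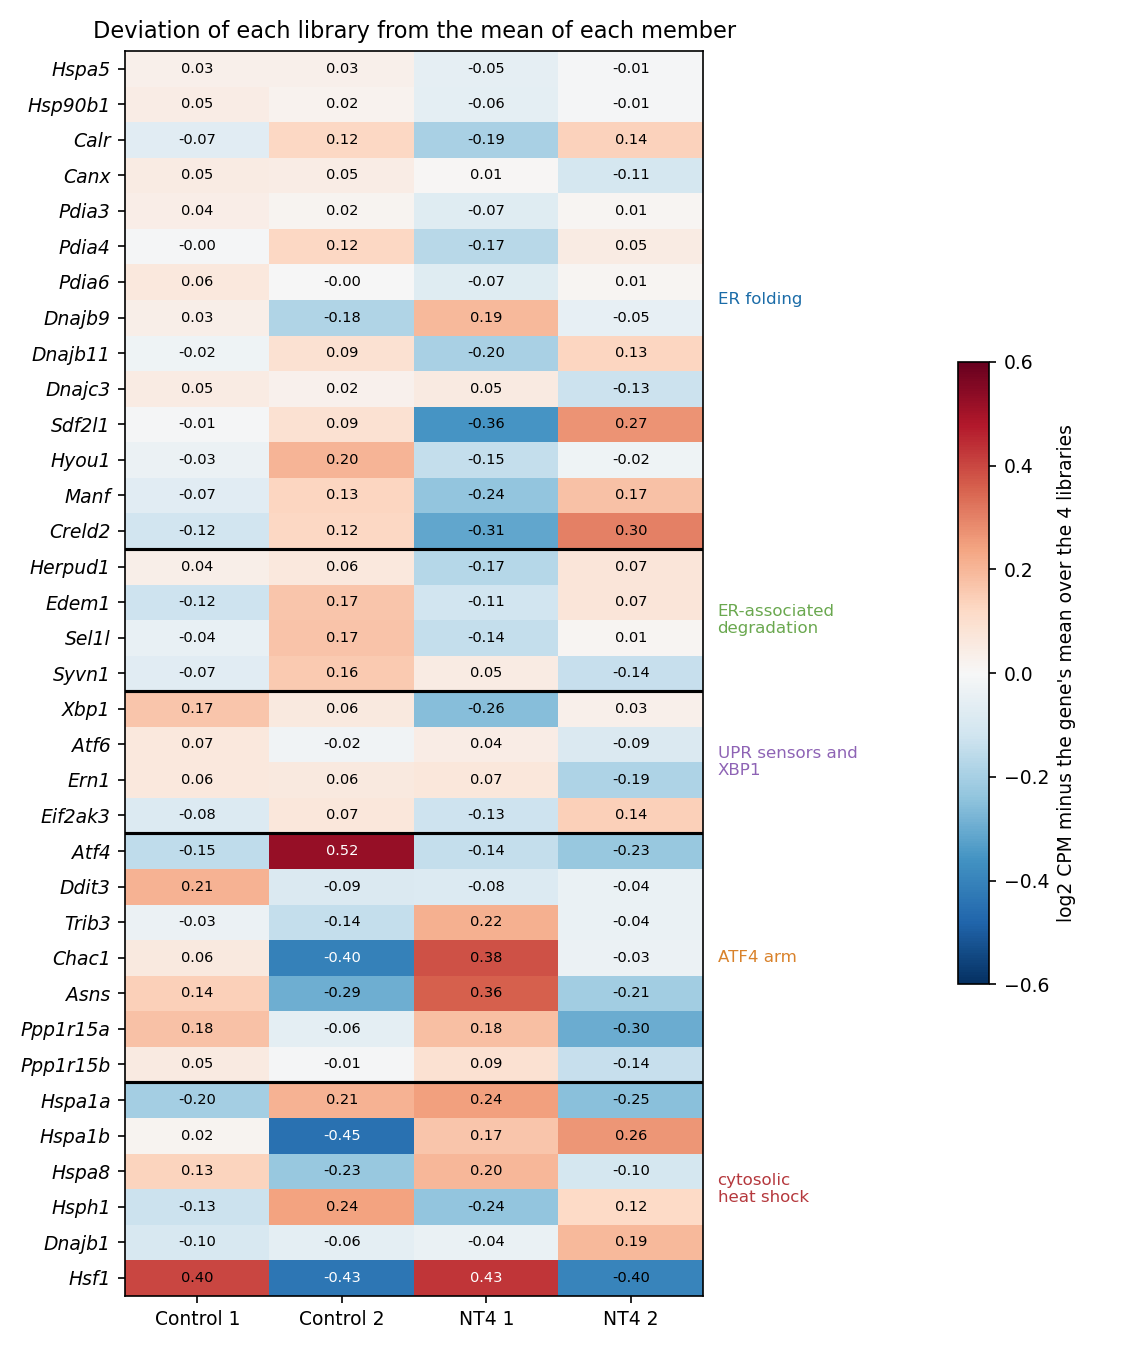
Log2 CPM of each member (rows, by role) in each library (columns) minus its mean over the 4 libraries, on a colour scale from -0.6 to 0.6 with the value in each cell. Atf4 deviates by 0.52 in Control 2, NT4 1 is low in most ER folding genes and high in most genes of the ATF4 arm, and Hsf1 changes sign with the library number.

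The spread between replicates was modest in these genes. The median log2 ratio between the 2 Control libraries was 0.191 in the members and 0.237 in all genes, and between the 2 NT4 libraries 0.242 and 0.307. The highest library stood a median of 1.25 times above the lowest in the members, against 1.44 times in all genes tested, and 1.82 times at most, in Hsf1. The members were also more abundant, at a median of 37.5 CPM per kilobase against 3.34 in all genes tested. No genes matched for level were compared, so a smaller spread is not shown to be a trait of the members. Summed over the members the level was 13794 and 13687 CPM in Control and 13242 and 13421 CPM in NT4. Within this sum the ER folding genes took 9166 and 9484 CPM in Control and 8524 and 9274 CPM in NT4, and the cytosolic heat shock genes, mostly Hspa8, 2996 and 2427 CPM and 3119 and 2629 CPM. Since a group held 2 libraries, the p-values lean on a spread pooled over genes by edgeR. The labels name no separate cultures, and the study describes the samples of a group as coming from independent experiments.

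Among the other genes of these pathways no gene passed the test. Of 86 further genes, all tested, 41 had a higher and 45 a lower estimate in NT4, with a median log2 fold change of -0.0020, and edgeR called 0 of them at an adjusted p under 0.05 and 0 at an unadjusted p under 0.05. The counts were 8 higher and 9 lower for 17 other ER folding and translocation genes such as P4hb, 3 and 9 for 12 other genes of ER-associated degradation such as Derl1, 7 and 6 for 13 other stress transcription and kinase genes such as Atf3, 13 and 7 for 20 other ATF4 targets such as Sesn2, and 10 and 14 for 24 other heat shock genes such as Hsp90aa1. The groups did not overlap in 20 of the 86, 11 higher in NT4 and 9 lower, which is 23.3% beside the 23.9% of genes at a mean of 1 CPM or more. The 3 with the smallest unadjusted p are given as values. Stc2, the secreted stanniocalcin-2, was at 15.8 and 10.3 CPM in Control and at 17.0 and 19.3 CPM in NT4 (log2 fold change 0.48, SE 0.25). Hspb8 and Hspb1 encode small heat shock proteins. Hspb8 was at 12.6 and 13.1 CPM in Control and at 15.1 and 16.1 CPM in NT4 (log2 fold change 0.28, SE 0.16), and Hspb1 at 19.3, 15.3, 32.8 and 16.5 CPM in the same order, its difference resting on NT4 1 (log2 fold change 0.51, SE 0.35).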

How the data were processed

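Total RNA of 4 granulosa cell samples (2 Control, 2 NT4) had been sequenced as paired reads from strand-marked (dUTP) libraries. The deposited values are estimated counts per gene, not normalized. According to the study's methods the authors filtered reads with Cutadapt, mapped them with HISAT2 (build mm10 in the submitters' processing notes) and estimated expression with StringTie and ballgown. How whole numbers were made, and whether strand was used, is not stated; low values sit at multiples of 4 in 45.4% to 46.2% of cases, so counts may overstate depth, and intervals cover no error from this step. The single-sample files equal the series table in 4 of 4 libraries.

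Of 55385 gene identifiers 55144 matched a symbol, with GENCODE M21 for positions and exon lengths. Counts were tested with edgeR 4.0.16 in R 4.3.3 (TMM, filterByExpr, quasi-likelihood, group as the single term, two-sided, Benjamini-Hochberg over 19259 genes). CPM are on TMM-scaled totals. Members, roles and lists were chosen with earlier results of these data known, so medians and counts are descriptions and no set test was made. Fold changes with SE are given for 12 members fixed by name and for members with a mean of 1 CPM or more whose groups did not overlap, 15 in all, and for the 3 further pathway genes with the smallest p. The scripts were checked on simulated counts with a set dispersion, which gives no power for these libraries. Alternatives were other scalings and filters, DESeq2 1.42.0, limma 3.58.1, a replicate block, counts divided by 4, the Hspa1 pair summed, and each library left out. Promoter windows came from RefSeq and motifs from a search of both strands. Protein sequences were not used here.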

Additional observations from a re-analysis of the deposited data

How the results depend on the processing

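The counts of called members stayed at 0 under every alternative run, and also at an adjusted p of 0.1 and a 1.5-fold change. Over all genes the adjusted count was 0 by the main test, 10 without the filter on low counts, 65 by DESeq2, 59 by the edgeR exact test, 12 without Control 1 and 37 without Control 2, none of them a member. At an unadjusted p under 0.05 edgeR called 2 members without Control 1 (Atf4 and Hspa1b), against 2.71% of all genes, and 2 without NT4 2 (Xbp1 and Sdf2l1), against 3.63%. Atf4 or Hsf1 or both had a 95% interval past a 2-fold change with DESeq2 size factors, upper-quartile factors, library totals, a CPM filter and counts divided by 4. With a library left out up to 6 members did, the most without Control 1, where 46.8% of all genes stayed within a 2-fold change. With all libraries kept, 89 counts and medians stayed at the same count or within the spread between replicates of that median. Of the fold changes of named genes, 155 kept their direction and side of the threshold, the summed Hspa1 pair counting for both genes. The exceptions were 1 median beyond that spread and 10 fold changes that changed sign. These were the median of the sensors and Xbp1, -0.098 with library totals against -0.079, Eif2ak3 at -0.0027 with library totals, and Hspa1a, whose estimate near 0 turned to -0.0020 with DESeq2 size factors, -0.00066 with upper-quartile factors, -0.014 with library totals, -0.0020 without a filter, -0.00066 with a CPM filter, -0.0022 by DESeq2, -0.039 by limma voom, -0.0055 with the replicate block and -0.0057 with counts divided by 4. The cause was not tested.

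With each library left out in turn, the medians ranged from -0.094 to -0.036 for the members, -0.16 to -0.020 for ER folding, -0.20 to 0.0075 for ER-associated degradation, -0.10 to -0.058 for the sensors and Xbp1, -0.16 to 0.12 for the ATF4 arm and -0.016 to 0.23 for cytosolic heat shock. The log2 fold changes that crossed 0 ranged from -0.12 to 0.019 in Atf6, -0.25 to 0.0060 in Ern1, -0.12 to 0.14 in Eif2ak3, -0.26 to 0.020 in Ddit3, -0.27 to 0.23 in Hspa1a, -0.076 to 0.28 in Hspa8 and -0.44 to 0.50 in Hsf1. Atf4 ranged from -0.71 to -0.026, Hspa1b from 0.21 to 0.66, Xbp1 from -0.37 to -0.091, Dnajb1 from 0.036 to 0.27, Canx from -0.16 to -0.040, Pdia3 from -0.10 to -0.022, Hspa5 from -0.082 to -0.041 and Hsp90b1 from -0.094 to -0.045. A lone library is then assumed to vary like the other group.

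The labels do not say that equal numbers mark a shared experiment. According to the study its culture experiments ran in parallel for all groups, but it does not tie the library numbers to them. Same-numbered libraries deviated together with a Pearson correlation of 0.14 over 19259 genes and 0.54 over the 35 members, which are not independent. With the replicate number as a block, edgeR called 0 members, the smallest unadjusted p being 0.0628, and 580 genes at an unadjusted p under 0.05 in place of 383. The interval of Hsf1 then ran from -0.27 to 0.33. With counts divided by 4, the low gene Ddit3 had an SE of 0.195, against 0.188 with the counts as deposited.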
